A study of Mus musculus with 12 samples.

Results

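The early neuroectoderm genes described here were Sox1, Sox11, Sox21, Pax6, Nes, Hes5, Zic1, Six3 and Ncam1, 9 of the 24015 gene rows in counts of 12 RNA libraries. They were taken by symbol for their place in early neural fate. The libraries came from mouse embryoid bodies, aggregates in which embryonic stem cells leave pluripotency and begin to form the germ layers. The 4 groups, of 3 libraries each, were Trim33-deficient and control bodies on day 2 and Trim33-deficient and control bodies on day 2.5, and the question put was which genes differ between the genotypes.

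All stem cell lines were outbred, at passages 8 to 10, and had been derived from embryos in which both Trim33 alleles were floxed (Trim33-flox) and which also had UbcCreERT2, a Cre recombinase that works only when tamoxifen is present and is driven in most cell types by the ubiquitin C promoter. They were grown feeder-free in LIF and 2i, which hold mouse stem cells in the naive state, and then put on low attachment dishes. In the Trim33-deficient groups 4OH-Tamoxifen was given on day 1, at 24 hours. The genotype of the control libraries is labelled wildtype, although the growth protocol gives the floxed alleles for the lines in general, and whether control bodies received 4OH-Tamoxifen is not given in the sources used here. The labels name 3 independent pairs but do not say which libraries form them, nor how many lines were used. P-values therefore measure the spread between these libraries, part of which may be technical.

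Neuroectoderm is the part of the ectoderm that forms the neural plate. Its cells arise by default from epiblast when Nodal and BMP signals are low, and the Sox1 gene is among the first to mark them. Trim33 is a chromatin-binding protein that works with Smad proteins downstream of Nodal, TGF-beta and BMP. SoxB1 proteins such as Sox1 keep cells as neural progenitors, Sox21 of the related SoxB2 group counteracts them, and Sox11, of the SoxC group, acts in progenitors and in young neurons. Pax6, Zic1 and Six3 are transcription factors of the neural plate, and Six3 is needed for the anterior forebrain. Hes5 is a transcriptional repressor switched on by Notch. Nes encodes nestin, an intermediate filament of progenitors, and Ncam1 encodes a cell adhesion molecule of neural cells.

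The promoters shown are those of the 3 transcription factor genes that passed a genotype test and had an entry (Sox11, Zic1 and Sox21) and that of Nes, the gene that changed over time in both genotypes. Each is the run of 250 bases that ends just before the start of the gene, 5′ to 3′ on the strand of the gene, from RefSeq on build GRCm38.p6. The counts were made on mm9, another build, so these positions do not belong to the count files. Capitals mark every copy of CAGAC or its reverse complement GTCTG, the core that Smad proteins recognise, and of ACAAT or its reverse complement ATTGT, the core that Sox proteins recognise. No copies of the motifs overlapped in these runs.
Nes, chr3:87970843-87971092, plus strand: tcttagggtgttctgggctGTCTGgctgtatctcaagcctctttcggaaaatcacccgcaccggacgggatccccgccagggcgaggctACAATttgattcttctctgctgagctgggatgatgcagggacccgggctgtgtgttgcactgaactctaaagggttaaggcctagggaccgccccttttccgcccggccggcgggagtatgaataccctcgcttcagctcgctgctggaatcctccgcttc
Sox11, chr12:27342719-27342968, minus strand: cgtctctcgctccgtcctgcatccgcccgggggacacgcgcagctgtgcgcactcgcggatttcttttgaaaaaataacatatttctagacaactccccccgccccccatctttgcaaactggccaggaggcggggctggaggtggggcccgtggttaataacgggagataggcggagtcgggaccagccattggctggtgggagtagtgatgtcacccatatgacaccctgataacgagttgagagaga
Zic1, chr9:91365769-91366018, minus strand: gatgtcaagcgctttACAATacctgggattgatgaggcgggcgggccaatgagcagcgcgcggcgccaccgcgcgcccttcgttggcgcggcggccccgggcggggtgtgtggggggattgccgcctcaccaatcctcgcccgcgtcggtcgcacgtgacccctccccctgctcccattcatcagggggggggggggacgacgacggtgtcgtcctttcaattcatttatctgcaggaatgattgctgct
Sox21, chr14:118237031-118237280, minus strand: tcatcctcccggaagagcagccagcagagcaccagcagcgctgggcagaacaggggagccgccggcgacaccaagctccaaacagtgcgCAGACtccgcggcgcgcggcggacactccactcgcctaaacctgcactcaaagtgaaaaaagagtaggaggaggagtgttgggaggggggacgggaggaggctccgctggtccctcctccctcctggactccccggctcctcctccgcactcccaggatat
Nes held 1 copy of each core, Zic1 held 1 copy of the Sox core, Sox21 held 1 copy of the Smad core, and Sox11 held 0 of both. Of 27025 promoters of that length, 42.1% held the Smad core and 28.3% the Sox core, so a match in any of these runs is common. GC content was 58.8% for Nes, 58% for Sox11, 66% for Zic1 and 65.2% for Sox21, against a median of 52% over all promoters. The Zic1 run held 27 CpG dinucleotides, those of Sox11 and Sox21 17 each and that of Nes 15, against a median of 6. Entries were found for 8 of the 9 genes, and Ncam1 had none.

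Libraries held 10066338 to 16529627 counts assigned to genes. Levels are given in CPM, the count of a gene scaled to library sizes corrected by TMM factors, and in that unit a count of 3, taken here as the floor, equals 0.179 to 0.318 CPM. Trim33 itself averaged 66.0 ± 4.88 CPM in Trim33-deficient bodies and 271 ± 8.55 CPM in control bodies on day 2, and 58.3 ± 4.23 and 249.8 ± 12.8 CPM on day 2.5 (SD, n = 3 each). Rn45s, the precursor of ribosomal RNA, made up 7.87% of the counts of Trim33-deficient replicate 1 on day 2. In control replicate 2 on day 2.5 its share was 11.9%, and elsewhere 0.609 to 1.67%. Day 2 control replicate 2 also stood apart from its group, with a mean chi-square per gene of 10.3 and 6.64 against replicates 1 and 3, which had 2.80 between them. Day 2.5 Trim33-deficient replicate 3 had 6.45 and 4.07 against replicates 1 and 2, which had 2.10 between them. It was not counted among the libraries that stood apart, a choice made after seeing the data. Test results that rest on the 3 libraries that stood apart (both Rn45s-rich libraries and day 2 control replicate 2) are given with and without them. Correlations are given over all 12 libraries only.

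The genes spanned a wide range of levels, and only Sox11 and Nes were abundant. Per kilobase of exon, Sox11 averaged 15.8 CPM per kb over the 12 libraries and Nes 13.5 CPM per kb. Sox1 followed at 2.34, Ncam1 at 1.72 and Pax6 at 0.710 CPM per kb. Sox21 stood at 0.373, Hes5 at 0.126, Zic1 at 0.121 and Six3 at 0.0743 CPM per kb. Lengths are the union of exons in GENCODE M21, so this order is approximate. Neighbours were not always apart: on day 2.5 Nes was above Sox11, at 15.2 ± 1.34 against 13.2 ± 1.04 CPM per kb in Trim33-deficient bodies and 18.3 ± 1.42 against 16.7 ± 0.716 CPM per kb in control bodies (SD, n = 3 each), and on day 2 it was below it in both genotypes. Sox1 and Ncam1 differed by less than their spread in both day 2 groups, and Hes5, Zic1 and Six3 could not be ordered at their counts.

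In raw counts, Sox11 had 1187 to 2315 per library, Nes 520 to 1945, Ncam1 143 to 295, Sox1 91 to 227 and Pax6 64 to 178. Sox21 had 9 to 31 counts, Zic1 2 to 20, Six3 2 to 11 and Hes5 0 to 7. The filter on low counts asked for 10 counts in a library of median size, which is 0.748 CPM, in 3 libraries. It passed 7 of the 9 genes and 14356 of all rows, while Hes5 and Six3 stayed out of the test. Zic1 would not have passed without the group in which it was highest. It reached the filter level in 3 of 3 day 2.5 Trim33-deficient libraries, in 0 of 3 day 2.5 control libraries and in 1 of 3 in each day 2 group. All other tested genes reached it in every library, except Sox21 in 1 day 2.5 control library.

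**Figure D1:**
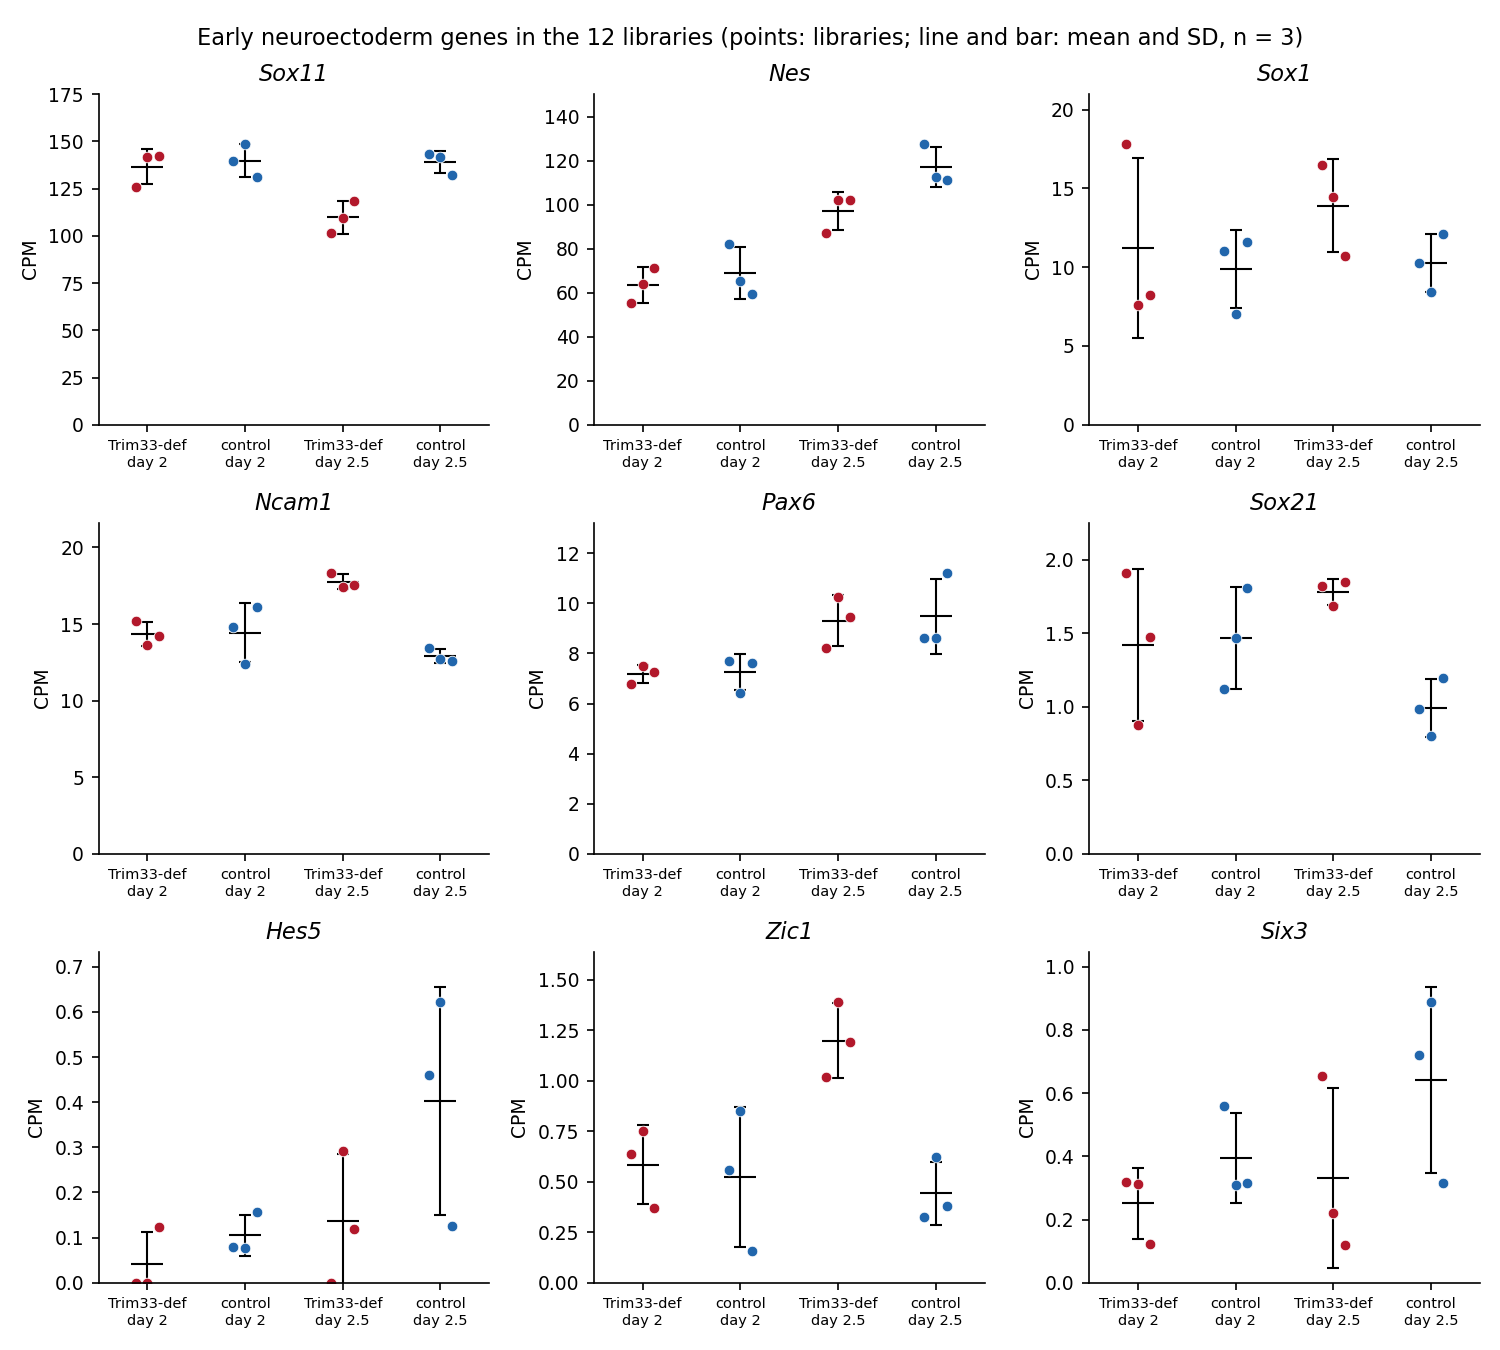
CPM of the 9 genes in the 12 libraries, with 1 panel per gene in the order of level per kilobase and each vertical axis on its own scale from 0. Points are libraries, red for Trim33-deficient and blue for control, and the line and bar are the mean and SD of 3. On day 2.5 the Sox11 points of Trim33-deficient bodies lie at 101 to 119 CPM, below all control points, and the Zic1, Sox21 and Ncam1 points lie above all control points.

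On day 2, a day after induction, no neuroectoderm gene was called between the genotypes. Of the 7 tested genes 0 rose and 0 fell by edgeR's quasi-likelihood test at a Benjamini-Hochberg adjusted p under 0.05. Of all tested genes 9.84% passed, 5.94% higher and 3.90% lower, and at that share few calls would come among 7 genes. Groups overlapped for all 9 genes, whereas they did not for 29.4% of tested genes. At an unadjusted p under 0.05 the count was also 0, and DESeq2 called 0.

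The intervals show which sizes of change the day 2 data leave room for. Sox11 had 126, 142 and 142 CPM in Trim33-deficient bodies and 139.6, 149 and 131 CPM in control bodies, and the groups overlapped. Its log2 fold change was -0.03, with a 95% interval of -0.17 to 0.11. Nes had 55.2, 64.0 and 71.4 CPM in Trim33-deficient bodies and 82.2, 65.2 and 59.7 CPM in control bodies, with a log2 fold change of -0.11 (95% interval -0.37 to 0.15). For Ncam1, at 15.2, 13.6 and 14.2 CPM in Trim33-deficient bodies and 14.8, 12.4 and 16.1 CPM in control bodies, the interval ran from -0.24 to 0.20. Pax6 lay at 6.79, 7.50 and 7.25 CPM in Trim33-deficient bodies and 7.69, 6.42 and 7.63 CPM in control bodies (interval -0.32 to 0.31). These 4 intervals stay well inside a change of 1 log2 unit.

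The intervals were wider for the lower genes and for Sox1. Sox1 had 17.8, 7.63 and 8.24 CPM in Trim33-deficient bodies and 11.1, 7.04 and 11.6 CPM in control bodies. Its highest value came from the Trim33-deficient library rich in Rn45s, and the log2 fold change was 0.12 (95% interval -0.60 to 0.84), or -0.31 without both Rn45s-rich libraries, where edgeR's adjusted p was 0.465. Sox21 averaged 1.42 ± 0.519 CPM in Trim33-deficient bodies and 1.47 ± 0.344 CPM in control bodies (SD, n = 3 each; interval -0.74 to 0.52). Zic1 averaged 0.585 ± 0.196 CPM in Trim33-deficient bodies and 0.523 ± 0.348 CPM in control bodies (SD, n = 3 each), and its interval of -0.90 to 1.17 leaves a change of more than 1 log2 unit possible upward.

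On day 2.5 the neuroectoderm genes differed between the genotypes in both directions. Sox11 fell in Trim33-deficient bodies, and Zic1, Sox21 and Ncam1 rose. Of the 7 tested genes 3 rose and 1 fell, where 42.8% of all tested genes passed, 22.0% higher and 20.7% lower. At 4 of 7, the share is close to that background, and Zic1 among them entered the test only through the Trim33-deficient group of this day. In bulk RNA, fewer cells of a type and less RNA per cell cannot be told apart.

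Sox11 had 101, 109 and 119 CPM in Trim33-deficient bodies and 143, 142 and 132 CPM in control bodies on day 2.5. Every Trim33-deficient library lay below every control library. The fall was 1.27-fold, with a log2 fold change of -0.34 ± 0.07 (SE) and an edgeR adjusted p of 0.000778. It passed under all 23 alternatives, at -0.40 to -0.29 and edgeR or DESeq2 adjusted p-values of 6.02e-05 to 0.00668. Without both Rn45s-rich libraries it was -0.32, with an edgeR adjusted p of 0.00170.

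Ncam1 had 18.3, 17.4 and 17.6 CPM in Trim33-deficient bodies and 13.5, 12.7 and 12.6 CPM in control bodies. The groups did not overlap, and the libraries of each group lay close together. The rise was 1.37-fold (log2 fold change 0.46 ± 0.10 SE, edgeR adjusted p = 0.00178), and it too passed under all 23 alternatives, at 0.44 to 0.49 and adjusted p-values of 0.000554 to 0.0111. Without both Rn45s-rich libraries the value was 0.45. Gm11149, a gene on the opposite strand that shares 417 exonic bases with Ncam1 in GENCODE M21, had 9 to 24 counts per library, few against those of Ncam1.

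Zic1 had 14, 19 and 20 counts in Trim33-deficient libraries and 5, 7 and 6 counts in control libraries on day 2.5, or 1.02, 1.39 and 1.19 CPM against 0.328, 0.622 and 0.378 CPM. No Trim33-deficient library was as low as any control library. The rise was 2.77-fold (log2 fold change 1.47 ± 0.43 SE, 95% interval 0.56 to 2.38, edgeR adjusted p = 0.0115). It rests on low counts and on a gene that entered the test only through the Trim33-deficient group of this day. Without day 2.5 control replicate 3 the call ended (1.38, edgeR adjusted p = 0.0509), and without both Rn45s-rich libraries it held at 1.74; over all 23 alternatives the adjusted p ran from 0.00471 to 0.0509.

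Sox21 had 25, 23 and 31 counts in Trim33-deficient libraries and 15, 9 and 19 counts in control libraries, or 1.82, 1.68 and 1.85 CPM against 0.984, 0.800 and 1.20 CPM. The groups did not overlap. The rise was 1.76-fold (log2 fold change 0.82 ± 0.29 SE, edgeR adjusted p = 0.0347), close to the threshold. The call ended under 8 of 23 alternatives, where all adjusted p-values lay between 0.0239 and 0.0941, among them DESeq2 (adjusted p = 0.0903), the fit without both Rn45s-rich libraries (edgeR adjusted p = 0.0827), and the removal of any Trim33-deficient library or of control replicate 1 or 2 of that day. Its log2 fold change stayed between 0.71 and 0.97 throughout. Gm4675, a gene on the opposite strand, shares 713 exonic bases with Sox21 in GENCODE M21 and has no row of its own in these counts. The strand setting of the counting is not given, so reads of Gm4675 may be among those of Sox21.

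Nes, Sox1 and Pax6 did not pass on day 2.5. Nes had 87.3, 102 and 102 CPM in Trim33-deficient bodies and 128, 113 and 111 CPM in control bodies, again with no overlap, as for 53.0% of all tested genes. Its log2 fold change was -0.27 ± 0.12 (SE) with an edgeR adjusted p of 0.0782. In a fit of the 6 compared libraries alone the value was -0.26 and passed (edgeR adjusted p = 0.0124), as it did without day 2 control replicate 1 (0.0233), within a range of 0.0124 to 0.243 over all 23 alternatives. Sox1 had 16.5, 14.5 and 10.7 CPM in Trim33-deficient bodies and 10.2, 8.44 and 12.1 CPM in control bodies, which overlapped (log2 fold change 0.42 ± 0.31 SE, edgeR adjusted p = 0.303). Pax6 had 8.22, 10.2 and 9.46 CPM in Trim33-deficient bodies and 8.60, 8.62 and 11.2 CPM in control bodies, with a log2 fold change of -0.03 and a 95% interval of -0.32 to 0.26.

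**Figure D2:**
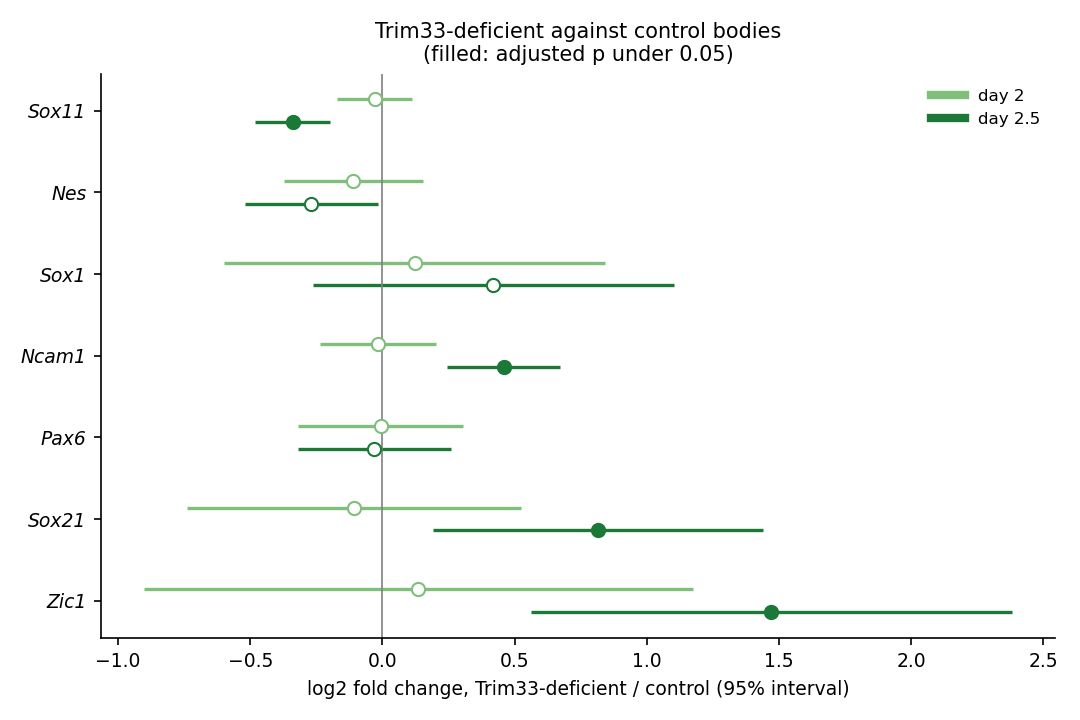
Log2 fold change of Trim33-deficient over control bodies (horizontal axis) for the 7 tested genes, light green for day 2 and dark green for day 2.5, with 95% intervals; filled points had an adjusted p under 0.05. No day 2 point is filled, and on day 2.5 Sox11 is filled left of 0 at -0.34 while Ncam1, Sox21 and Zic1 are filled right of 0.

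Hes5 and Six3 were near the limit of detection in all groups. On day 2 Hes5 had 0, 0 and 2 counts in Trim33-deficient libraries and 1, 1 and 2 counts in control libraries. On day 2.5 it had 0, 4 and 2 counts in Trim33-deficient libraries and 7, 7 and 2 counts in control libraries. The 3 libraries at 0, 2 on day 2 and 1 on day 2.5, allow up to 0.318, 0.188 and 0.218 CPM, counting error only. Only 3 of the 12 libraries were above the floor of 3 counts. Six3 had 3, 5 and 2 counts in Trim33-deficient libraries and 7, 4 and 4 counts in control libraries on day 2. On day 2.5 it had 9, 3 and 2 counts in Trim33-deficient libraries and 11, 10 and 5 counts in control libraries. The groups overlapped for both genes on both days, and a difference between genotypes was not detectable at this depth. Six3os1, which lies on the opposite strand and shares 106 exonic bases with Six3, had 1 to 5 counts, as many as some Six3 values. Whether the counting used strand is not given in the sources used here, so reads of Six3 and Six3os1 may be mixed. Gm28528, also on the strand opposite to Six3, shares 168 exonic bases with Six3 and has no row in these counts. Reads of Gm28528 may thus be among those of Six3. Gm20421, on the strand opposite to Hes5, shares 433 exonic bases with Hes5 and has no row in these counts. Its reads may therefore be among those of Hes5.

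Between day 2 and day 2.5, Nes rose in both genotypes. In Trim33-deficient bodies it averaged 97.2 ± 8.60 CPM on day 2.5 and 63.5 ± 8.14 CPM on day 2, a rise of 1.52-fold (log2 fold change 0.61 ± 0.12 SE, edgeR adjusted p = 0.00502). In control bodies it averaged 117 ± 9.09 CPM on day 2.5 and 69.0 ± 11.7 CPM on day 2 (SD, n = 3 each), a rise of 1.70-fold (0.77 ± 0.12, edgeR adjusted p = 0.00122). Both calls held under all 23 alternatives. The test of the difference between these rises gave -0.16, with a 95% interval of -0.52 to 0.20.

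In Trim33-deficient bodies 2 of the 7 tested genes rose over time, Nes and Ncam1, and 1 fell, Sox11, where 16.0% of all tested genes passed, 9.09% higher and 6.93% lower. In control bodies 1 rose, Nes, and the other 6 did not pass, where 16.1% passed, 8.20% higher and 7.91% lower. Sox11 averaged 109.7 ± 8.66 CPM on day 2.5 and 137 ± 9.35 CPM on day 2 in Trim33-deficient bodies (SD, n = 3 each), and no day 2.5 library was as high as any day 2 library. That fall was 1.25-fold (log2 fold change -0.32 ± 0.07 SE, edgeR adjusted p = 0.00473) and passed under all 23 alternatives. In control bodies Sox11 stood at 139 ± 5.95 CPM on day 2.5 and 139.8 ± 8.65 CPM on day 2 (log2 fold change -0.01, 95% interval -0.15 to 0.13).

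Ncam1 averaged 17.8 ± 0.494 CPM on day 2.5 and 14.3 ± 0.779 CPM on day 2 in Trim33-deficient bodies (SD, n = 3 each), a rise of 1.24-fold with an edgeR adjusted p of 0.0427. The call ended under 8 of 23 alternatives, among them DESeq2 (adjusted p = 0.0735), no filter on low counts (edgeR adjusted p = 0.0607) and the removal of day 2 Trim33-deficient replicate 2 or 3, of any day 2.5 Trim33-deficient library or of day 2.5 control replicate 3, with adjusted p-values of 0.0122 to 0.169 over all of them. In control bodies it stood at 12.9 ± 0.468 CPM on day 2.5 and 14.4 ± 1.91 CPM on day 2 (SD, n = 3 each), with a log2 fold change of -0.16 and a 95% interval of -0.38 to 0.06.

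Pax6 did not pass over time in either genotype in the fit without a replicate block. In Trim33-deficient bodies the log2 fold change over time was 0.37 ± 0.14 (SE, edgeR adjusted p = 0.0882) and in control bodies 0.39 ± 0.14 (SE, edgeR adjusted p = 0.0720). In both genotypes all 3 day 2.5 libraries lay above all 3 day 2 libraries, as days did not overlap for 38.7% of all tested genes in Trim33-deficient bodies and 31.2% in control bodies. Zic1 had a log2 fold change over time of 1.04 ± 0.41 (SE) in Trim33-deficient bodies, with an edgeR adjusted p of 0.0923 and no overlap of days, and of -0.29 ± 0.52 (SE) in control bodies. With the Trim33-deficient libraries fitted alone Zic1 passed over time (edgeR adjusted p = 0.0451), and over all 23 alternatives its adjusted p ran from 0.0322 to 0.316. Its counts in these bodies were low, at 14, 19 and 20 on day 2.5 and 6, 12 and 6 on day 2. Under the filter Zic1 entered the test only through the day 2.5 Trim33-deficient group. These p-values and the lack of overlap therefore do not by themselves show a rise over time. Sox21 stood at 0.39 ± 0.28 (SE) over time in Trim33-deficient bodies and -0.54 ± 0.31 (SE) in control bodies, and neither passed.

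Sox1 over time depended on a single library. In Trim33-deficient bodies it had 16.5, 14.5 and 10.7 CPM on day 2.5 and 17.8, 7.63 and 8.24 CPM on day 2, with a log2 fold change of 0.36 ± 0.31 (SE, edgeR adjusted p = 0.470). Without day 2 Trim33-deficient replicate 1, the library at 17.8 CPM in which Rn45s took 7.87% of counts, the value was 0.80 and passed (edgeR adjusted p = 0.0291), and over all 23 alternatives the adjusted p ran from 0.000893 to 0.839. In control bodies the value was 0.07 ± 0.32 (SE) and did not pass.

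**Figure D3:**
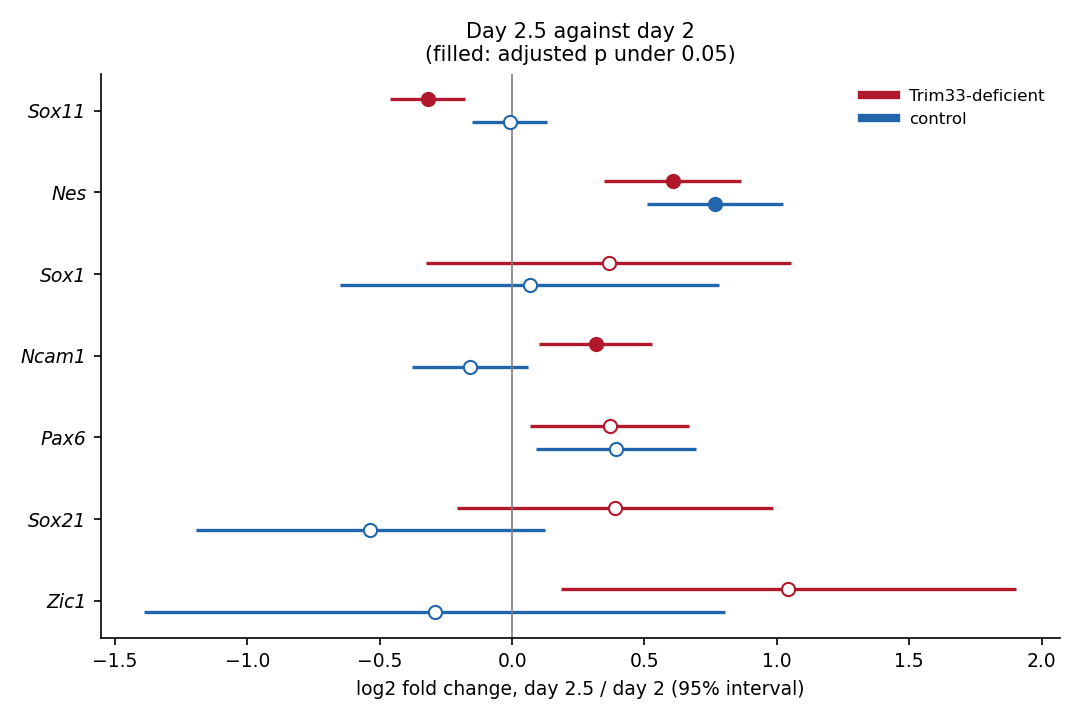
Log2 fold change of day 2.5 over day 2 (horizontal axis) for the 7 tested genes, red for Trim33-deficient and blue for control bodies, with 95% intervals; filled points had an adjusted p under 0.05. Nes is filled at 0.61 and 0.77 in Trim33-deficient and control bodies, and Sox11 and Ncam1 are filled in Trim33-deficient bodies alone.

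Whether the genotype effect differed between the days was tested as an interaction. Of the 7 genes 0 passed by edgeR, where 4.01% of all tested genes passed, and DESeq2 also called 0. At an unadjusted p under 0.05 there were 3. Sox11 had an interaction of -0.31 ± 0.09 on the log2 scale (SE, edgeR adjusted p = 0.0740), Ncam1 of 0.47 ± 0.14 (adjusted p = 0.0737) and Sox21 of 0.92 ± 0.42 (adjusted p = 0.221). A difference between genotypes in the course of Sox11 or Ncam1 is therefore not shown by this test. Whether these genes passed changed with the libraries and the fit used, over 21 alternatives with adjusted p-values of 0.00472 to 0.196 for Sox11 and 0.0113 to 0.206 for Ncam1. Without day 2 control replicate 2 Sox11 passed at -0.36 (edgeR adjusted p = 0.0270) and Ncam1 at 0.57 (adjusted p = 0.0178). Without all 3 libraries that stood apart Sox11 passed at -0.40 (adjusted p = 0.00472), Ncam1 at 0.60 (adjusted p = 0.0113) and Sox1 at 0.81 (adjusted p = 0.0244). Sox11 also passed without day 2 Trim33-deficient replicate 1 (adjusted p = 0.0307), without day 2.5 Trim33-deficient replicate 3 (adjusted p = 0.0386) and without both Rn45s-rich libraries (adjusted p = 0.0455).

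Levels of some members moved together across the 12 libraries, as Pearson correlations of log2(CPM + 0.5), which share library depth and the 4 groups. Sox11 ran opposite to Ncam1 (r = -0.87, and -0.62 after the group means were taken out) and to Sox1 (r = -0.78, and -0.89 within groups). Among day 2 Trim33-deficient libraries, replicate 1 had the highest Sox1 (17.8 CPM) and the lowest Sox11 (126 CPM). Among day 2 controls, replicate 2 had the lowest Sox1 (7.04 CPM) and the highest Sox11 (149 CPM). Both are libraries that stood apart, and the correlations were not computed without them. Pax6 and Nes ran together (r = 0.79), but little of that remained within groups (r = 0.23). Sox1 and Ncam1 had r = 0.66, and 0.68 within groups. The rest of the 21 relations between the 7 tested genes lay between -0.64 and 0.72.

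By the same measure, the genes of mean CPM at least 1 whose pattern was most like that of a member were found over all tested genes. For Nes they were Adamts7, a secreted metalloprotease (r = 0.97), and Cd24a, a cell surface glycoprotein (r = 0.96). For Sox11 they were Arhgef19, a guanine nucleotide exchange factor (r = 0.95), and Slc16a3, a lactate transporter (r = 0.94). Ncam1 was nearest to Zbtbd6 (r = 0.965) and Apobec2 (r = 0.955), and Pax6 to Gpx8, a peroxidase of the endoplasmic reticulum (r = 0.96), and Fut4, a fucosyltransferase (r = 0.90). Sox1 was nearest to Zfp618 and to Pcsk6, a proprotein convertase that processes Nodal (r = 0.89 each). Sox21 was nearest to Plcb4, a phospholipase C (r = 0.90), and Arntl2, a relative of the clock gene Arntl (r = 0.89). None of these genes was itself among the 9.

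The wider neural lists give the setting of the 9 genes. They do not contain the 9 and were chosen with earlier results of these data known. Of 24 transcription factor genes tied to neural competence, 20 were tested. On day 2 4 fell and 16 did not pass, where 5.94% of all tested genes rose and 3.90% fell. The median log2 fold change was 0.03, against -0.005 over all tested genes. The count of 4 was 0 to 4 across the alternatives, and 0 without day 2 control replicate 3, without day 2 Trim33-deficient replicate 1 or without both Rn45s-rich libraries. Zic5 averaged 23.6 ± 2.14 CPM in Trim33-deficient bodies and 31.9 ± 1.83 CPM in control bodies, a fall of 0.43 on the log2 scale (edgeR adjusted p = 0.0220). Zic2, a zinc finger factor needed for forebrain formation, averaged 199.8 ± 24.3 CPM in Trim33-deficient bodies and 261 ± 0.912 CPM in control bodies (log2 fold change -0.38, edgeR adjusted p = 0.0238). Both calls were lost under some alternatives, 4 of 23 for Zic5 and 6 of 23 for Zic2.

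On day 2.5 7 of these 20 rose and 8 fell, against a background of 22.0% higher and 20.7% lower, with a median of 0.07 against -0.01 over all tested genes. Without day 2.5 control replicate 3, and without day 2.5 Trim33-deficient replicate 1, 4 rose. Zic2 stood at 149 ± 21.1 CPM in Trim33-deficient bodies and 266 ± 10.8 CPM in control bodies (log2 fold change -0.84 ± 0.09 SE, edgeR adjusted p = 2.14e-05). Foxd4, a forkhead factor of early neural ectoderm, stood at 3.84 ± 0.267 CPM in Trim33-deficient bodies and 1.08 ± 0.371 CPM in control bodies (1.87 ± 0.26). Sox2, Pou3f2, Gbx2 and Nkx6-2 were also among those that rose, and the others that fell were Sox3, Otx2, Zfp521, Zic5, Rax, Irx3 and Gmnn. Zic1 was thus higher on day 2.5 while its relatives Zic2 and Zic5 were lower. Zic4, which overlaps Zic1 on the opposite strand by 60 exonic bases, had 0 to 3 counts and was not tested.

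Genes of progenitor structure, among which are adhesion molecules, matrix proteins and the enzymes that put polysialic acid on Ncam1, mostly fell where they passed on day 2.5. Of 18 genes 17 were tested, 3 rose and 9 fell, with a median log2 fold change of -0.52, where 22.0% of all tested genes rose and 20.7% fell. Sfrp1, a secreted Wnt inhibitor, averaged 61.6 ± 3.87 CPM in Trim33-deficient bodies and 100.1 ± 5.84 CPM in control bodies (log2 fold change -0.70 ± 0.07 SE). Nrcam, an adhesion molecule related to L1cam, averaged 9.29 ± 0.265 CPM in Trim33-deficient bodies and 18.5 ± 2.05 CPM in control bodies (-0.99 ± 0.13). On day 2 2 rose and 2 fell (1 to 3 and 1 to 2 across the alternatives), where 5.94% of all tested genes rose and 3.90% fell. Nrcam was lower by 0.78 on that day and Cdh2, the N-cadherin gene, higher by 0.72 on the log2 scale. In control bodies 7 of these genes rose over time, 4 without day 2 control replicate 3, and 1 fell, where 8.20% of all tested genes rose and 7.91% fell. The first of them was Prom1 at 71.6 ± 13.8 CPM on day 2.5 and 31.4 ± 4.01 CPM on day 2, and Nrcam rose by 0.96.

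The polysialyltransferases were chosen after their values were seen. St8sia2 averaged 2.46 ± 1.17 CPM in Trim33-deficient bodies and 8.30 ± 2.66 CPM in control bodies on day 2.5 (log2 fold change -1.71 ± 0.34 SE, edgeR adjusted p = 0.00151). St8sia4 averaged 3.00 ± 0.649 CPM in Trim33-deficient bodies and 1.79 ± 0.417 CPM in control bodies (0.77 ± 0.24, edgeR adjusted p = 0.0182), a call that ended by DESeq2 (adjusted p = 0.0505), without day 2.5 control replicate 3 and without day 2.5 Trim33-deficient replicate 1, with a range of 0.00833 to 0.101. Both enzymes act on the protein that Ncam1 encodes, and their RNA differed in opposite directions.

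Hes5 is a direct Notch target but was too low to test, so the genes of the Notch pathway are given beside it. Of 19 genes 17 were tested, and on day 2.5 6 rose and 3 fell, with a median log2 fold change of 0.17. With 42.8% of all tested genes passing on that day, this count is near the background. Dll1, a Notch ligand, averaged 96.4 ± 22.1 CPM in Trim33-deficient bodies and 18.5 ± 2.61 CPM in control bodies, a rise of 5.17-fold (log2 fold change 2.37 ± 0.16 SE). Hes6, which inhibits Hes1 and promotes neuronal differentiation, averaged 143 ± 7.16 CPM in Trim33-deficient bodies and 82.3 ± 6.65 CPM in control bodies (0.80 ± 0.07). The receptor gene Notch1, the ligand Jag2, the glycosyltransferase Lfng and the DNA-binding effector Rbpj also rose, while the Notch targets Hes1 and Hey1 and the coactivator Maml1 fell. On day 2 3 rose and 2 fell, the falls being 0 to 3 across the alternatives, where 5.94% of all tested genes rose and 3.90% fell. Hes6 was higher by 0.39 and Notch1 by 0.46 on the log2 scale. Over time in control bodies 2 rose (0 to 5 across the alternatives) and 2 fell (1 to 3), where 8.20% of all tested genes rose and 7.91% fell. Dll1 fell by 0.87, a call lost without all 3 libraries that stood apart (edgeR adjusted p = 0.151). Mib1, a ligand-activating ubiquitin ligase, rose by 0.25, a call lost under 4 of 23 alternatives.

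Of 15 neuronal genes 12 were tested, and 3 rose and 0 fell on day 2.5, where 22.0% of all tested genes rose and 20.7% fell. The 3 rises, a count near the background share, held under all alternatives. Mapt, which encodes tau, averaged 7.66 ± 0.585 CPM in Trim33-deficient bodies and 1.88 ± 0.488 CPM in control bodies (log2 fold change 2.04 ± 0.23 SE), and Neurod1 averaged 30.8 ± 4.49 CPM in Trim33-deficient bodies and 11.3 ± 1.95 CPM in control bodies (1.43 ± 0.15). The third was Stmn2, a microtubule regulator. The other 9 tested genes did not pass, though 0 to 2 of the list were called lower across the alternatives, 1 by DESeq2 and 2 without all 3 libraries that stood apart, and the list's median log2 fold change was 0.07. On day 2 Mapt and Stmn2 rose by 0.91 and 0.42 on the log2 scale, calls lost under 4 and 5 of 23 alternatives. Without day 2 control replicate 3, and without day 2 Trim33-deficient replicate 1, neither passed. In control bodies, where 8.20% of all tested genes rose over time and 7.91% fell, Map2 rose by 0.34, a call lost under 5 of 23. Across the alternatives 0 to 3 neuronal genes were called lower on day 2, and 0 to 4 over time in control bodies.

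Markers of other lineages were also examined on day 2.5, when 42.8% of all tested genes passed. Of 12 naive pluripotency genes 10 rose and 1 fell on that day, with a median log2 fold change of 1.71. Their summed level was 1319 to 1410 CPM in Trim33-deficient bodies and 1100 to 1170 CPM in control bodies. Most of that sum was Pou5f1, at 829 ± 24.8 CPM in Trim33-deficient bodies and 831 ± 57.5 CPM in control bodies (SD, n = 3 each). Nanog was the gene that fell, at 75.8 ± 6.54 CPM in Trim33-deficient bodies and 182.5 ± 23.5 CPM in control bodies. Esrrb averaged 130.8 ± 21.0 CPM in Trim33-deficient bodies and 28.0 ± 2.14 CPM in control bodies, and Tfcp2l1 58.8 ± 8.27 and 14.2 ± 1.65 CPM. Of 13 tested neural crest and surface ectoderm genes 6 rose and 1 fell, with Krt8 higher by 1.11 on the log2 scale, and the list's sum was 207 to 263 CPM in Trim33-deficient bodies and 182 to 225 CPM in control bodies. Of 9 tested mesoderm and endoderm genes 2 rose (1 by DESeq2, and 1 with either Trim33-deficient replicate 2 or control replicate 1 of that day left out) and 3 fell, with T lower by 1.48 and Eomes by 0.99, and the sum was 23.1 to 29.0 CPM in Trim33-deficient bodies and 33.7 to 42.4 CPM in control bodies. The counts of these last lists, 6 and 1 of 13 and 2 and 3 of 9, are near that background. The summed level of the 9 neuroectoderm genes, most of it Sox11 and Nes, was 235 to 262 CPM in Trim33-deficient bodies and 281 to 306 CPM in control bodies. The part of these other lineages in the neuroectoderm values was not tested. Rn45s lay at 1.08 to 1.67% in Trim33-deficient bodies of that day and at 0.609, 0.727 and 11.9% in control bodies, and its part was not tested beyond the fits without those libraries.

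**Figure D4:**
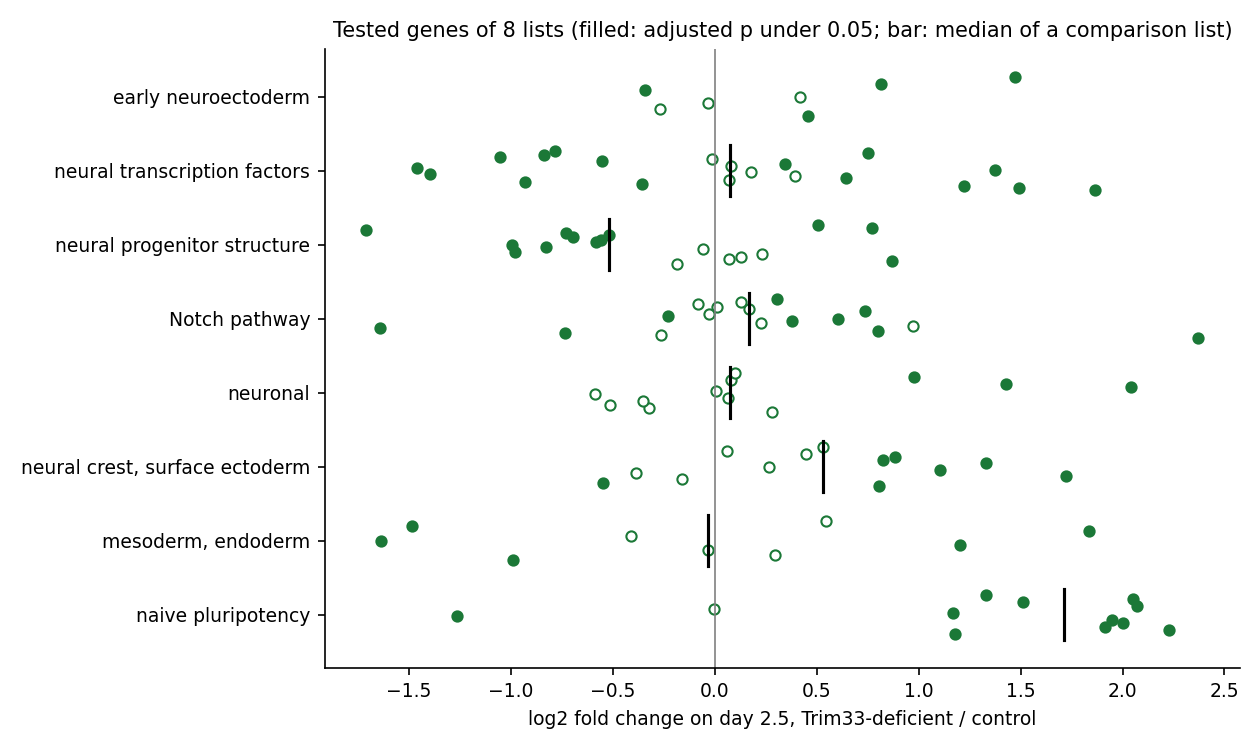
Log2 fold change of Trim33-deficient over control bodies on day 2.5 (horizontal axis) for every tested gene of the 9 early neuroectoderm genes and of 7 comparison lists, with 1 point per gene. Filled points had an adjusted p under 0.05 and the black bar is the median of a comparison list; the bars lie at -0.52 for neural progenitor structure and at 1.71 for naive pluripotency, and the neuroectoderm genes lie between -0.34 and 1.47.

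On day 2 the other lineages stood closer. Of the 12 naive genes 6 rose, led by Esrrb (log2 fold change 1.19) and Tfcp2l1 (1.15), and 1 fell, where 5.94% of all tested genes rose and 3.90% fell. The rises were 3 without day 2 control replicate 3. By edgeR 0 crest and surface ectoderm genes and 0 mesoderm and endoderm genes passed, with 0 also at an unadjusted p under 0.05, by DESeq2 and under the other alternatives. At a share of 9.84% over all tested genes, few calls would come in these lists of 13 and 9 tested genes. Over time in control bodies 8.20% of all tested genes rose and 7.91% fell. There 3 mesoderm and endoderm genes rose, T by 1.42, Gata4 by 0.57 and Eomes. Across the alternatives 2 to 3 of that list rose, and the Gata4 call was lost under 2 of 23. In the neural crest and surface ectoderm list Krt8 rose by 0.73 over time, and in the neural transcription factor list Zfp521, a factor that promotes neural fate in mouse stem cells, rose by 1.57 and Sox2 fell by 0.28. Among the 12 naive genes 2 rose over time, Dppa3 and Nanog, and 3 fell, Klf2, Nr0b1 by 1.20 and Esrrb by 0.83 on the log2 scale. The falls were 2 to 7 across the alternatives, and 6 without day 2 Trim33-deficient replicate 1.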

How the data were processed

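RNA was sequenced from total RNA of 12 samples in 4 groups. The deposited files hold raw counts per gene symbol; per the submitters' processing notes the authors used STAR, HTSeq, DESeq and the build mm9, and the strand setting is not given in the sources used here. The closing rows that name no gene were left out; reads in no feature were 55.9 to 60.5%. In 1 library 27 gene names turned into dates were restored by row. Members and lists were chosen with earlier results of these data known. Counts were tested with edgeR 4.0.16 (R 4.3.3, limma 3.58.1): TMM factors, filterByExpr by group, quasi-likelihood models (robust) with 1 mean per group over 12 libraries, leaving 8 residual degrees of freedom, and Benjamini-Hochberg adjustment over 14356 genes in each of 5 comparisons; an adjusted p under 0.05 passed. No library batch is labelled. Replicate libraries of a group differed beyond sampling noise. The scripts were tested on simulated data. Alternatives were RLE and upper-quartile factors, other filters, DESeq2 1.42.0, fits of the compared libraries, replicate blocks, each library left out, and, after seeing the data, fits without libraries that stood apart or without Rn45s. Named genes were the 9 members, up to 2 genes per list and comparison with the smallest adjusted p, and 2 most alike genes per member; St8sia2 and St8sia4 were added after their values were seen. A few genes this rule names are not reported here. P-values and intervals cover the spread of 3 libraries per group; floors cover counting error only.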

Additional observations from a re-analysis of the deposited data

How the results depend on the processing

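Same-numbered libraries of both genotypes did not all deviate together (r = 0.1, 0.217 and -0.087 on day 2, and -0.027, -0.053 and -0.007 on day 2.5). Nor did all same-numbered libraries of both days (r = 0.217, -0.026 and 0.118 in Trim33-deficient and 0.469, 0.57 and 0.069 in control bodies). Across the days, libraries of different numbers had r of -0.209 to 0.167 in Trim33-deficient and -0.565 to 0.256 in control bodies. Control replicates 1 and 2 thus deviated together across the days, and replicate 3 did so little. The numbers were not taken as pairs. With the number as a replicate block, 2 genes passed the interaction, Sox11 (edgeR adjusted p = 0.0408) and Ncam1 (0.0492), and Zic1 passed over time in Trim33-deficient bodies (0.0486). With the block nested in genotype 2 passed over time in control bodies, where Pax6 (0.0252) was added, and 5 in Trim33-deficient bodies, where Pax6 (0.0241) and Zic1 (0.0322) were added. The block moved no other count of members by over 1.5 times. Zic1 entered these tests only through the day 2.5 Trim33-deficient group.

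In the interaction 0 to 2 genes passed with single libraries left out, 1 without both Rn45s-rich libraries and 3 without all 3 that stood apart, against 0 with all; fits without these libraries were chosen after seeing the data. Values that changed sign were all uncalled. Without both Rn45s-rich libraries the day 2 log2 fold change was -0.31 for Sox1, 0.028 for Sox11 and 0.031 for Pax6, and without all 3 it was -0.51 for Sox1 and 0.074 for Sox11. Over time in control bodies Sox1 gave -0.016 and Sox11 0.025 without all 3, and Sox11 0.00081 with upper-quartile factors. With each library left out in turn, the day 2 value lay from -0.31 to 0.35 for Sox1, -0.070 to 0.025 for Sox11, -0.32 to 0.17 for Sox21, -0.086 to 0.038 for Pax6, -0.20 to 0.034 for Nes, -0.29 to 0.68 for Zic1 and -0.12 to 0.075 for Ncam1. Pax6 lay from -0.10 to 0.11 on day 2.5 and from -0.099 to 0.12 in the interaction. Over time in control bodies Sox1 lay from -0.13 to 0.19, Sox11 from -0.053 to 0.037 and Zic1 from -0.72 to 0.25. The causes were not tested.

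Across settings 514 to 1870 genes were called on day 2 (1413 in the reported fit), 4794 to 6656 on day 2.5 (6143), 1235 to 4202 over time in control bodies (2313), 1101 to 4297 in Trim33-deficient bodies (2300) and 119 to 1967 in the interaction (575). Counts of comparison lists grew by over 1.5 times in 97 cases, shrank by as much in 141 and moved less in 1344. At their counts, Zic1, Sox21, Hes5 and Six3 are limited by depth.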
